A study of Mus musculus with 10 samples.

Results

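Prostanoids and lipoxygenase products are lipid mediators that cells make from arachidonate and related fatty acids. Their genes were followed here in mouse microglia through 10 members, chosen by symbol from 24421 listed symbols. The members are the cyclooxygenases Ptgs1 and Ptgs2, the prostaglandin D synthases Hpgds and Ptgds, the lipoxygenase pathway genes Alox5, Alox5ap and Lta4h, and the receptors Ptger4, Cmklr1 and Fpr2. The 10 members were found in every library's list, and 10 of 10 passed a filter on low counts (edgeR's filterByExpr).

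The study sequenced total RNA of cortical microglia from 9-month-old mice in 3 groups: wild type (WT, n = 3 libraries), APP/PS1 (n = 4) and APP/PS1 given N-AS (n = 3). Each library held cells of 2 pooled mice, so the library is the replicate. The cortex was dissociated with papain and the cells were separated by density gradient centrifugation. The series addresses how N-AS, N-acetyl sphingosine, alters gene expression in microglia of a mouse model of amyloid deposition.

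WT mice carried neither transgene. APP/PS1 mice over-express a mutant human APP with the Swedish change and a mutant presenilin-1. The N-AS group had the same APP/PS1 genotype and received N-AS under the skin daily at 30 mg/kg for 8 weeks, from 7 months of age. The labels name no injection for the WT and APP/PS1 groups, while the study's text calls the APP/PS1 mice of this comparison vehicle-treated. The total count was 8805804 to 19133654 in WT (median 17102559), 12474941 to 19432075 in APP/PS1 (median 13050526) and 12755933 to 19035817 in N-AS libraries (median 16500725). Levels are given as CPM, each library's counts set to a common size with TMM scaling, with the SD over the libraries of a group. Reads amplified by PCR without molecular identifiers are not independent molecules, so counting limits cover counting error only.

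The study's methods say that only male mice were used, and the reads go against this. Xist, an RNA that female cells make from the silenced X chromosome, had 37, 37 and 33 reads in the WT libraries. It had 5253, 5831, 8477 and 11188 reads in the APP/PS1 libraries. In the N-AS libraries it had 7024, 8848 and 29 reads. The 4 Y-linked genes Ddx3y, Kdm5d, Eif2s3y and Uty together had 177, 197 and 178 CPM in WT libraries. They had 42.7, 57.0, 0.888 and 0.619 CPM in APP/PS1 libraries and 31.0, 45.7 and 176 CPM in N-AS libraries. The 3 WT libraries and N-AS replicate 3 were thus low in Xist, while the 4 APP/PS1 libraries and N-AS replicates 1 and 2 were high. Genotype and what sets Xist apart cannot be told apart between WT and APP/PS1. Log2 fold changes of single genes that use the N-AS group are therefore given with and without replicate 3. Without replicate 3, the N-AS libraries left are high in Xist and the WT libraries low. Those fits therefore cannot separate N-AS against WT from what sets Xist apart. App, the mouse gene, was at 1622 ± 188 CPM in WT (SD, n = 3) and 1249 ± 137 CPM in APP/PS1 (SD, n = 4), so its reads did not set the transgenic libraries above WT.

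Markers of microglia were present in every library. All 12 of the 12 listed microglial genes were matched, and none was at 0. Their summed level was 828, 973 and 1191 CPM in WT, 2359, 2408, 2929 and 2457 CPM in APP/PS1, and 1759, 1906 and 1527 CPM in N-AS libraries. Of the 12 genes, 10 rose in APP/PS1 against WT by the adjusted p of edgeR's quasi-likelihood test, and DESeq2 and limma with voom each gave 10. For N-AS minus APP/PS1 edgeR gave 0, DESeq2 1 and limma with voom 0, and for N-AS minus WT they gave 0, 5 and 0. At an unadjusted p under 0.05 edgeR gave 7 genes as lower in N-AS against APP/PS1, where 8.83% of all genes passed. It gave 10 as higher in N-AS against WT, where 6.73% passed. The N-AS libraries lay wholly below APP/PS1 for 6 genes and wholly above WT for 8. Of all genes, 12.7% and 8.81% did not overlap in these comparisons. The median log2 difference of the 12 genes was 1.35 between APP/PS1 and WT, −0.53 between N-AS and APP/PS1, and 0.75 between N-AS and WT. In bulk RNA, more microglia in a library and more RNA of a gene per microglial cell cannot be told apart.

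Markers of other cells were also abundant. The 10 oligodendrocyte genes summed to 7024, 7156 and 2472 CPM in WT, 4777, 4235, 1980 and 2030 CPM in APP/PS1, and 3919, 4023 and 2942 CPM in N-AS libraries. Of them 3 fell in APP/PS1 against WT by edgeR, namely Cnp, Opalin and Ermn, while 8 had an unadjusted p under 0.05, all lower. DESeq2 gave 7 of these 10 genes an adjusted p under 0.05 and limma with voom gave 3. The 9 neuronal genes, led by Camk2a, summed to 3104, 3121 and 6238 CPM in WT, 3930.4, 3565, 3176 and 3602 CPM in APP/PS1, and 3591, 3305 and 4163 CPM in N-AS libraries. The 8 astrocyte genes, led by Slc1a2, summed to 2238, 2346 and 2665 CPM in WT, 2474, 2561, 3953 and 3573 CPM in APP/PS1, and 2287, 2349 and 3319 CPM in N-AS libraries. Of these 8 astrocyte genes, edgeR called 2 as higher in APP/PS1 against WT, Gfap and S100b, and 1 in N-AS against WT, Gfap. In each of these comparisons 4 of the 8 had a log2 fold change above 0 and 4 below 0. The median was −0.05 in APP/PS1 against WT and 0.002 in N-AS against WT. Astrocyte genes called in N-AS against APP/PS1 were 0 by edgeR and limma with voom and 1 by DESeq2. The marker genes named here other than the most abundant of each list were chosen after their values were seen.

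WT replicate 3 and N-AS replicate 3 stood apart in the 5 choroid plexus genes. These genes, led by Ttr, summed to 416, 416 and 16.5 CPM in WT, 887, 1221, 895 and 707 CPM in APP/PS1, and 627, 836 and 18.9 CPM in N-AS libraries. The 7 endothelial genes, led by Flt1, summed to 998, 1234 and 484 CPM in WT, 1069, 1054, 990.0 and 1065 CPM in APP/PS1, and 876, 983 and 897 CPM in N-AS libraries. The 6 leptomeningeal fibroblast genes, led by Igf2, summed to 189, 197 and 96.3 CPM in WT, 139, 179.8, 302 and 151 CPM in APP/PS1, and 165, 198 and 161 CPM in N-AS libraries. WT replicate 3 was thus the lowest of the 10 libraries in the choroid plexus, endothelial and leptomeningeal sums.

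Markers of blood-borne, border and vessel cells were also measured. The 4 monocyte genes, led by Ly6c2, summed to between 5.40 and 17.2 CPM in WT, between 12 and 20.3 CPM in APP/PS1 and between 7.51 and 10.9 CPM in N-AS libraries, with Plac8 at 0 reads in N-AS replicates 1 and 3. For neutrophils, 6 of the 7 listed genes were matched, led by S100a9, and they summed to 98.4 CPM in APP/PS1 replicate 3 and to between 4.53 and 18.4 CPM in the other libraries. The 6 mast cell genes, led by Ms4a2, summed to between 0.413 and 6.06 CPM over the 10 libraries, with Mcpt4, Tpsb2, Tpsab1 and Cma1 at 0 in at least 1 library. The 5 lymphocyte genes, led by Cd3d, summed to between 37.3 and 93.3 CPM in WT, between 54.3 and 148 CPM in APP/PS1, and between 61.0 and 91.5 CPM in N-AS libraries. The 6 border macrophage genes, led by Mrc1, summed to between 29.5 and 44.6 CPM in WT, between 24.6 and 50.5 CPM in APP/PS1, and between 23.3 and 50.02 CPM in N-AS libraries. The 4 pericyte genes, led by Rgs5, lay between 162 and 302 CPM, and the 4 oligodendrocyte precursor genes, led by Cspg4, between 60.0 and 95.7 CPM, over the 10 libraries. In these lists and in the neuronal, endothelial, choroid plexus and leptomeningeal lists, edgeR, DESeq2 and limma with voom each gave 0 genes an adjusted p under 0.05 in the 3 comparisons. With edgeR's filter only 2 of the 6 mast cell genes, 5 of the 6 matched neutrophil genes and 4 of the 5 lymphocyte genes were tested, so the 0 for mast cells rests on 2 genes. At an unadjusted p under 0.05, edgeR gave Kl of the choroid plexus in APP/PS1 minus WT, Plac8 in N-AS minus APP/PS1 and Cd79a in N-AS minus WT.

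As background, cyclooxygenases turn arachidonate into prostaglandin H, from which separate synthases make prostaglandins and thromboxane, each with its own receptors. Arachidonate 5-lipoxygenase, helped by its activating protein, makes the precursor of the leukotrienes and takes part in making lipoxins and resolvins, mediators that help end inflammation. Microglia are the brain's resident macrophages and are known to make and sense several of these lipids.

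Across the members, 4 of 10 rose in APP/PS1 against WT with an adjusted p under 0.05 (edgeR's quasi-likelihood test, Benjamini-Hochberg adjustment over 18727 genes): Ptgs1, Hpgds, Alox5 and Ptger4. Of all genes tested 3.47% passed in either direction and 2.67% passed as higher. At an unadjusted p under 0.05 there were 5 members, all higher, against 17.2% of all genes. The libraries of both groups did not overlap for 5 members, all above WT, against 14.9% of all genes. The median log2 fold change was 0.46 over the members and −0.07 over all genes. The count of 4 depended on the libraries used. It was 2 without WT replicate 1, WT replicate 2, APP/PS1 replicate 3 or APP/PS1 replicate 4. It was 3 without APP/PS1 replicate 1 or 2, and 4 without WT replicate 3. The number of all genes called in these fits is not given, so the counts do not show whether calls fell in the members alone.

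In N-AS against APP/PS1, edgeR gave 0 of 10 members an adjusted p under 0.05, and 0% of all genes. DESeq2 also gave 0 members, with 79 genes in all, and limma with voom gave 0 members. At an unadjusted p under 0.05 there were 2 members by edgeR, Hpgds and Ptger4, both lower, against 8.83% of all genes. The same number of members, 2, had N-AS libraries that lay wholly below APP/PS1, against 12.7% of all genes whose libraries did not overlap. The median log2 fold change was −0.13 over the members and −0.01 over all genes. Without N-AS replicate 3 the count by edgeR was again 0.

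In N-AS against WT, edgeR gave 0 of 10 members an adjusted p under 0.05, against 0.187% of all genes, and DESeq2 and limma with voom gave 0 members. At an unadjusted p under 0.05 there were 5 members, Ptgs1, Hpgds, Alox5, Alox5ap and Ptger4, all higher, against 6.73% of all genes. The N-AS libraries lay wholly above WT for 5 members, against 8.81% of all genes whose libraries did not overlap. The median log2 fold change was 0.45 over the members and −0.04 over all genes. With N-AS replicate 3 left out edgeR again gave 0 members. The 3 comparisons share libraries, so their values stand side by side and are not independent of each other.

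**Figure D1:**
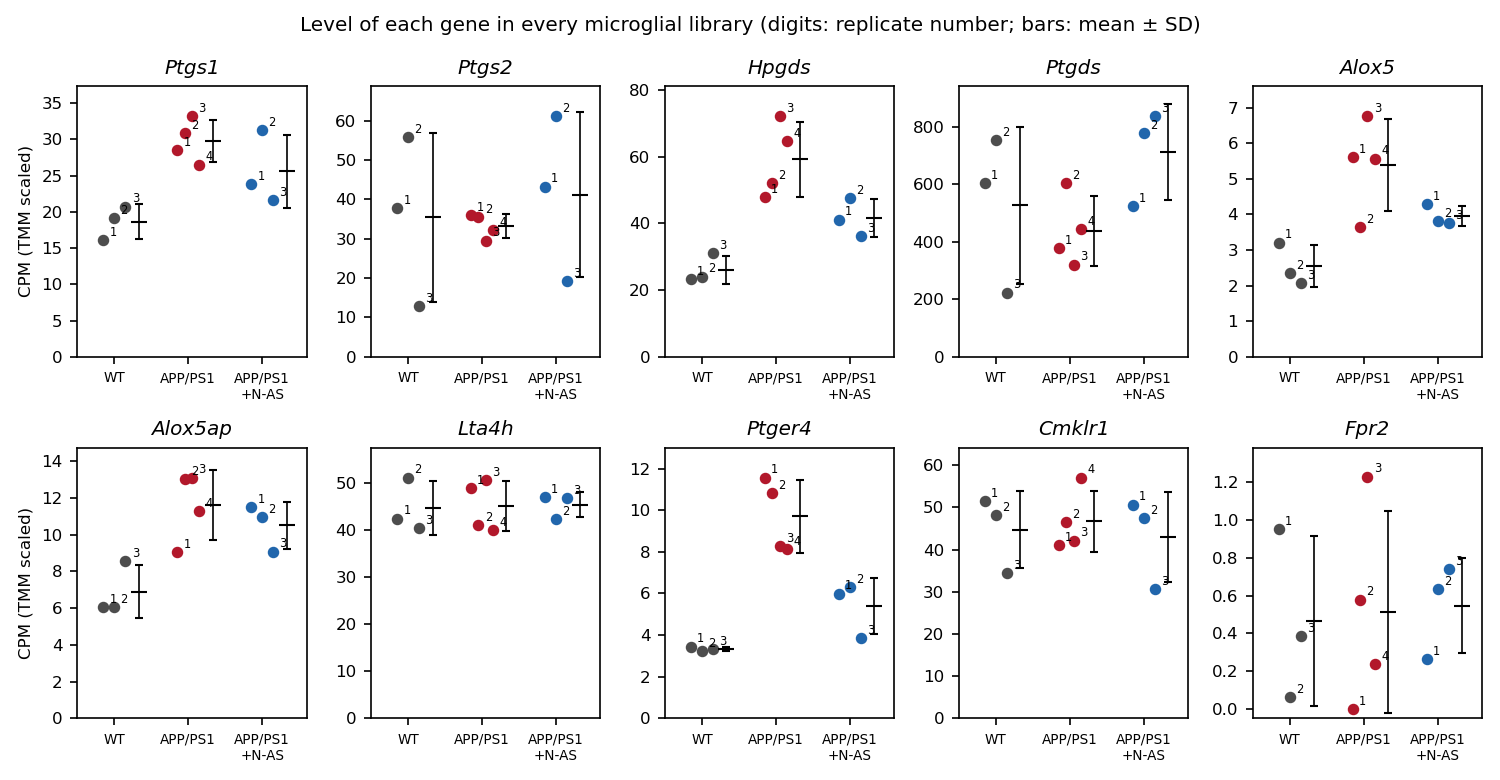
Level of each of the 10 members in CPM (vertical axes, each with its own range) in WT, APP/PS1 and N-AS libraries, with 1 point per library marked by its replicate number and bars for the group mean ± SD. The 4 APP/PS1 points lie above the 3 WT points for Ptgs1, Hpgds, Alox5, Alox5ap and Ptger4.

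Of the cyclooxygenases, Ptgs1 encodes COX1, the cyclooxygenase that many cells make at all times. Its level was 16.0, 19.1 and 20.7 CPM in WT, 28.6, 30.9, 33.2 and 26.5 CPM in APP/PS1, and 23.9, 31.3 and 21.6 CPM in N-AS libraries, from 135 to 590 reads a library. Every APP/PS1 library lay above every WT library, and the N-AS libraries lay above WT and overlapped APP/PS1. The means were 18.6 ± 2.38 CPM in WT (SD, n = 3), 29.8 ± 2.89 CPM in APP/PS1 (SD, n = 4) and 25.6 ± 5.07 CPM in N-AS (SD, n = 3). Ptgs1 rose 1.59-fold in APP/PS1 against WT, a log2 fold change of 0.67 (SE 0.16, 95% interval 0.32 to 1.02) with an edgeR adjusted p of 0.0453. The log2 fold change was −0.22 (SE 0.16, adjusted p 0.717) in N-AS against APP/PS1 and 0.45 (SE 0.17, adjusted p 0.63) in N-AS against WT by edgeR.

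The call on Ptgs1 lay near the threshold and changed with the libraries and the processing used. Without WT replicate 1 the edgeR adjusted p was 0.135, without WT replicate 2 it was 0.105, and without WT replicate 3 it was 0.0431. Leaving out APP/PS1 replicate 1, 2, 3 or 4 gave 0.0753, 0.113, 0.129 and 0.0739. The log2 fold change stayed between 0.58 and 0.76 in these fits. Over all 15 alternatives Ptgs1 passed in 4, and it was also lost by edgeR with total counts only (adjusted p 0.0871), no filter (0.0597), a replicate block (0.0704) and only the 2 groups compared (0.0584), and by limma with voom (0.0553). The libraries are numbered 1 to 10, and the labels do not call the numbers 1 to 6 and 7 to 10 batches. The log2 difference between APP/PS1 and WT was 0.76 in numbers 1 to 6 and 0.51 in numbers 7 to 10. Between N-AS and APP/PS1 it was −0.12 and −0.46. Numbers 7 to 10 hold 1 WT, 2 APP/PS1 and 1 N-AS library. That N-AS library is replicate 3, low in Xist where the 2 APP/PS1 libraries are high. For this and the other members, values of N-AS within 7 to 10 rest on it alone. Without N-AS replicate 3, N-AS against APP/PS1 was −0.10 (edgeR adjusted p 0.909) and N-AS against WT was 0.59 (edgeR adjusted p 0.356).

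Ptgs2 encodes COX2, the cyclooxygenase that inflammatory signals and neuronal activity induce. Its level was 37.7, 55.7 and 12.8 CPM in WT, 35.9, 35.5, 29.5 and 32.2 CPM in APP/PS1, and 43.2, 61.1 and 19.2 CPM in N-AS libraries, from 260 to 1153 reads a library. The 4 APP/PS1 libraries were close together, while WT and N-AS each spread over a wide range, with their replicate 3 lowest and their replicate 2 highest. The 3 groups overlapped. The means were 35.4 ± 21.6 CPM in WT (SD, n = 3), 33.3 ± 3.01 CPM in APP/PS1 (SD, n = 4) and 41.2 ± 21 CPM in N-AS (SD, n = 3). By edgeR, the log2 fold change was −0.08 (SE 0.44, 95% interval −1.06 to 0.89, adjusted p 0.948) in APP/PS1 against WT. It was 0.31 (SE 0.44, 95% interval −0.66 to 1.28, adjusted p 0.876) in N-AS against APP/PS1 and 0.23 (SE 0.47, adjusted p 0.978) in N-AS against WT, again by edgeR.

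The direction for Ptgs2 turned with the libraries used. Within library numbers 1 to 6 the log2 difference between APP/PS1 and WT was −0.36, and within 7 to 10 it was 1.26. Between N-AS and APP/PS1 it was 0.52 within 1 to 6 and −0.68 within 7 to 10. In the fits that left out 1 library, APP/PS1 against WT ranged from −0.49 to 0.43 on the log2 scale. With N-AS replicate 3 left out, N-AS against APP/PS1 was 0.66 (edgeR adjusted p 0.737) and N-AS against WT was 0.58 (edgeR adjusted p 0.716). WT replicate 3, where Ptgs2 was lowest, also had the lowest endothelial sum, 484 CPM, and the highest neuronal sum, 6238 CPM, and their part in the level of Ptgs2 was not tested.

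Of the prostaglandin D synthases, Hpgds is the hematopoietic form, made in macrophages, mast cells and some T cells. Its level was 23.4, 24.0 and 31.0 CPM in WT, 48.0, 52.1, 72.1 and 64.6 CPM in APP/PS1, and 41.1, 47.5 and 36.1 CPM in N-AS libraries, from 197 to 1357 reads a library. The 3 groups did not overlap: WT was lowest, N-AS lay between, and APP/PS1 was highest. The means were 26.1 ± 4.22 CPM in WT (SD, n = 3), 59.2 ± 11.2 CPM in APP/PS1 (SD, n = 4) and 41.6 ± 5.70 CPM in N-AS (SD, n = 3). Hpgds rose 2.26-fold in APP/PS1 against WT, a log2 fold change of 1.18 (SE 0.18, 95% interval 0.78 to 1.57) with an edgeR adjusted p of 0.00562. Each fit without 1 library kept the call, with adjusted p from 0.00537 to 0.0333 by edgeR and log2 fold changes from 1.08 to 1.33.

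Between N-AS and APP/PS1 libraries the log2 fold change of Hpgds was −0.51 (SE 0.17, 95% interval −0.90 to −0.12), with an edgeR adjusted p of 0.509. Between N-AS and WT libraries it was 0.67 (SE 0.19), with an edgeR adjusted p of 0.351. Without N-AS replicate 3 these were −0.41 (edgeR adjusted p 0.724) and 0.79 (edgeR adjusted p 0.204). N-AS replicate 3 had 36.1 CPM of Hpgds, above the highest WT library at 31.0 CPM and below the lowest APP/PS1 library at 48.0 CPM. In the library numbers 1 to 6 and 7 to 10, APP/PS1 minus WT was 1.07 and 1.14, and N-AS minus APP/PS1 was −0.18 and −0.92 on the log2 scale. The mast cell markers, which mark another known source of Hpgds, summed to 1.12, 0.413, 3.83 and 2.86 CPM in the APP/PS1 libraries and to 6.06, 1.80 and 0.868 CPM in WT.

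Ptgds, the lipocalin-type prostaglandin D synthase, is known from oligodendrocytes, the leptomeninges and the choroid plexus. Its level was 603, 753 and 223 CPM in WT, 379, 603, 321 and 445 CPM in APP/PS1, and 524, 778 and 837 CPM in N-AS libraries, from 4393 to 14675 reads a library. The groups overlapped in each comparison. Between same-numbered libraries N-AS lay above APP/PS1 in each of replicates 1, 2 and 3. With a replicate block edgeR again gave Ptgds no adjusted p under 0.05 there. WT replicate 3 was the lowest and N-AS replicate 3 the highest of the 10 libraries. The means were 526 ± 273 CPM in WT (SD, n = 3), 437 ± 122 CPM in APP/PS1 (SD, n = 4) and 713 ± 167 CPM in N-AS (SD, n = 3). By edgeR the log2 fold change was −0.27 (SE 0.37, adjusted p 0.769) in APP/PS1 against WT, and 0.71 (SE 0.37, 95% interval −0.11 to 1.52, adjusted p 0.612) in N-AS against APP/PS1. For N-AS minus WT it was 0.44 (SE 0.40, edgeR adjusted p 0.903).

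Marker sums moved with Ptgds in part of the libraries. WT replicate 3 had the lowest level of Ptgds and low sums for oligodendrocytes (2472 CPM), leptomeningeal fibroblasts (96.3 CPM) and choroid plexus (16.5 CPM). N-AS replicate 3 had the highest level of Ptgds, 837 CPM, with a choroid plexus sum of 18.9 CPM and a leptomeningeal sum of 161 CPM. The part of these cells in the level of Ptgds was not tested. With N-AS replicate 3 left out, Ptgds was 0.58 on the log2 scale in N-AS against APP/PS1 (edgeR adjusted p 0.756) and 0.33 in N-AS against WT (edgeR adjusted p 0.845). Within library numbers 1 to 6 and 7 to 10, APP/PS1 minus WT was −0.50 and 0.76, and N-AS minus APP/PS1 was 0.42 and 1.15.

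In the lipoxygenase pathway, Alox5 encodes arachidonate 5-lipoxygenase, the enzyme that starts leukotriene synthesis. Its level was 3.21, 2.35 and 2.07 CPM in WT, 5.61, 3.64, 6.76 and 5.57 CPM in APP/PS1, and 4.28, 3.82 and 3.77 CPM in N-AS libraries. These values came from 27, 38 and 43 reads in WT, 65, 44, 99 and 117 reads in APP/PS1, and 65, 72 and 51 reads in N-AS libraries. The APP/PS1 and the N-AS libraries each lay above WT, and they overlapped each other. The means were 2.54 ± 0.592 CPM in WT (SD, n = 3), 5.39 ± 1.30 CPM in APP/PS1 (SD, n = 4) and 3.96 ± 0.284 CPM in N-AS (SD, n = 3). Alox5 rose 2.15-fold in APP/PS1 against WT, a log2 fold change of 1.11 (SE 0.26, 95% interval 0.53 to 1.68) with an edgeR adjusted p of 0.0448. For N-AS minus APP/PS1 it was −0.45 (SE 0.25, edgeR adjusted p 0.63), and in N-AS against WT 0.66 (SE 0.27, edgeR adjusted p 0.688).

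The call on Alox5 also lay near the threshold and changed with the libraries and the processing used. The edgeR adjusted p was 0.0503, 0.118 and 0.0816 without WT replicate 1, 2 and 3. It was 0.0825, 0.0295, 0.121 and 0.109 without APP/PS1 replicate 1, 2, 3 and 4. The log2 fold change stayed between 0.99 and 1.29 in these fits. Over all 15 alternatives Alox5 passed in 6, and it was also lost by edgeR with total counts only (adjusted p 0.055), a replicate block (0.112) and only the 2 groups compared (0.114). In the library numbers 1 to 6 and 7 to 10, APP/PS1 minus WT was 0.69 and 1.51, and N-AS minus APP/PS1 was −0.16 and −0.69. Without N-AS replicate 3 the log2 fold change was −0.41 (edgeR adjusted p 0.753) against APP/PS1 and 0.72 (edgeR adjusted p 0.568) against WT.

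Alox5ap encodes the activating protein that hands arachidonate to 5-lipoxygenase. Its level was 6.06, 6.07 and 8.58 CPM in WT, 9.06, 13.1, 13.1 and 11.3 CPM in APP/PS1, and 11.5, 11 and 9.09 CPM in N-AS libraries, from 51 to 237 reads a library. Every APP/PS1 and every N-AS library lay above every WT library. The means were 6.90 ± 1.45 CPM in WT (SD, n = 3), 11.6 ± 1.91 CPM in APP/PS1 (SD, n = 4) and 10.5 ± 1.28 CPM in N-AS (SD, n = 3). In APP/PS1 against WT the log2 fold change was 0.74 (SE 0.19, 95% interval 0.32 to 1.17) with an edgeR adjusted p of 0.0659, so Alox5ap did not pass. Alox5ap passed without WT replicate 3 (0.95, edgeR adjusted p 0.0261), without APP/PS1 replicate 1 (0.84, edgeR adjusted p 0.0443) and by DESeq2 (adjusted p 0.0175). Over all alternatives to this fit the adjusted p of Alox5ap lay between 0.0175 and 0.171.

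In N-AS against APP/PS1 the log2 fold change of Alox5ap was −0.14 (SE 0.19, edgeR adjusted p 0.865), and −0.04 (edgeR adjusted p 0.979) without N-AS replicate 3. In N-AS against WT it was 0.60 (SE 0.20, edgeR adjusted p 0.551), and 0.72 (edgeR adjusted p 0.347) without that library. Within library numbers 1 to 6 and 7 to 10, APP/PS1 minus WT was 0.83 and 0.50, and N-AS minus APP/PS1 was 0.05 and −0.42 on the log2 scale.

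Lta4h encodes leukotriene A4 hydrolase, which makes leukotriene B4. Its level was 42.4, 51.1 and 40.4 CPM in WT, 48.9, 41.1, 50.6 and 39.9 CPM in APP/PS1, and 47.0, 42.3 and 46.8 CPM in N-AS libraries, from 357 to 839 reads a library. The groups overlapped throughout and their means nearly met, at 44.7 ± 5.70 CPM in WT (SD, n = 3), 45.1 ± 5.39 CPM in APP/PS1 (SD, n = 4) and 45.4 ± 2.69 CPM in N-AS (SD, n = 3). By edgeR the log2 fold change was 0.01 in APP/PS1 against WT (SE 0.13, 95% interval −0.28 to 0.31, adjusted p 0.972). It was 0.01 in N-AS against APP/PS1 (95% interval −0.29 to 0.30, edgeR adjusted p 0.994) and 0.02 in N-AS against WT (edgeR adjusted p 0.995). Without N-AS replicate 3 the last pair was −0.01 (edgeR adjusted p 0.996) and 0.03 (edgeR adjusted p 0.976). Within library numbers 1 to 6 and 7 to 10, APP/PS1 minus WT was −0.06 and 0.15, and N-AS minus APP/PS1 was −0.01 and 0.06.

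Among the receptors, Ptger4 encodes EP4, a receptor for prostaglandin E2. Its level was 3.45, 3.22 and 3.33 CPM in WT, 11.6, 10.8, 8.27 and 8.14 CPM in APP/PS1, and 6, 6.31 and 3.84 CPM in N-AS libraries, from 29 to 171 reads a library. The 3 groups did not overlap: the WT libraries were lowest and nearly alike, the N-AS libraries lay between, and the APP/PS1 libraries were highest. The means were 3.33 ± 0.114 CPM in WT (SD, n = 3), 9.70 ± 1.75 CPM in APP/PS1 (SD, n = 4) and 5.38 ± 1.34 CPM in N-AS (SD, n = 3). Ptger4 rose 2.90-fold in APP/PS1 against WT, a log2 fold change of 1.54 (95% interval 1.04 to 2.03) with an edgeR adjusted p of 0.00449. Each fit without 1 library kept the call, with adjusted p from 0.00989 to 0.0281 by edgeR and log2 fold changes from 1.44 to 1.63.

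Between N-AS and APP/PS1 libraries, Ptger4 had the lowest log2 fold change of the 10 members, −0.84 (95% interval −1.31 to −0.37), with an unadjusted p of 0.00247 and an adjusted p of 0.494 by edgeR. Between N-AS and WT libraries it was 0.70, with an edgeR adjusted p of 0.543. With N-AS replicate 3 left out these were −0.64 (edgeR adjusted p 0.724) and 0.91 (edgeR adjusted p 0.148). N-AS replicate 3 had 3.84 CPM, just above the highest WT library at 3.45 CPM. In the library numbers 1 to 6 and 7 to 10, APP/PS1 minus WT was 1.71 and 1.27, and N-AS minus APP/PS1 was −0.85 and −1.07 on the log2 scale.

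Cmklr1 encodes the receptor for chemerin and resolvin E1. Its level was 51.6, 48.2 and 34.4 CPM in WT, 41.1, 46.5, 42.2 and 57.1 CPM in APP/PS1, and 50.7, 47.6 and 30.7 CPM in N-AS libraries, from 416 to 1199 reads a library. The groups overlapped, and replicate 3 was the lowest of its group in WT and in N-AS. The means were 44.7 ± 9.08 CPM in WT (SD, n = 3), 46.7 ± 7.30 CPM in APP/PS1 (SD, n = 4) and 43.0 ± 10.7 CPM in N-AS (SD, n = 3). By edgeR the log2 fold change was 0.07 in APP/PS1 against WT (SE 0.21, 95% interval −0.39 to 0.52, adjusted p 0.908), −0.12 in N-AS against APP/PS1 (SE 0.21, adjusted p 0.901) and −0.05 in N-AS against WT (SE 0.22, adjusted p 0.989). The last pair turned direction without N-AS replicate 3, at 0.08 (edgeR adjusted p 0.943) and 0.17 (edgeR adjusted p 0.823). Within library numbers 1 to 6 and 7 to 10, APP/PS1 minus WT was −0.19 and 0.51, and N-AS minus APP/PS1 was 0.17 and −0.67.

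Fpr2 encodes a formyl peptide receptor that also binds lipoxin A4 and annexin A1. It had 8, 1 and 8 reads in WT, 0, 7, 18 and 5 reads in APP/PS1, and 4, 12 and 10 reads in N-AS libraries. In CPM these were 0.951, 0.0619 and 0.386 in WT, 0, 0.578, 1.23 and 0.238 in APP/PS1, and 0.264, 0.636 and 0.739 in N-AS libraries. The groups overlapped, and the 0 reads in APP/PS1 replicate 1 allow up to 3 reads there, or 0.259 CPM. By edgeR the log2 fold change was 0.25 in APP/PS1 against WT (SE 1.04, 95% interval −2.04 to 2.55, adjusted p 0.932) and 0.09 in N-AS against APP/PS1 (SE 1.00, 95% interval −2.11 to 2.29, adjusted p 0.99). For N-AS minus WT it was 0.34 (SE 1.10, edgeR adjusted p 0.984). With N-AS replicate 3 left out these were −0.17 (edgeR adjusted p 0.985) and 0.09 (edgeR adjusted p 0.989) for the comparisons with APP/PS1 and WT. Within library numbers 1 to 6 and 7 to 10, APP/PS1 minus WT was −0.58 and 0.46, and N-AS minus APP/PS1 was 0.85 and 0.30. Limma with voom gave 0.03 in APP/PS1 against WT, 1.18 (adjusted p 0.662) in N-AS against APP/PS1 and 1.2 (adjusted p 0.987) in N-AS against WT. A difference within these intervals was not detectable in these libraries. Fpr2 shares 48 exon bases with Fpr3 on the same strand, and the split of reads among the related Fpr genes is uncertain.

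**Figure D2:**
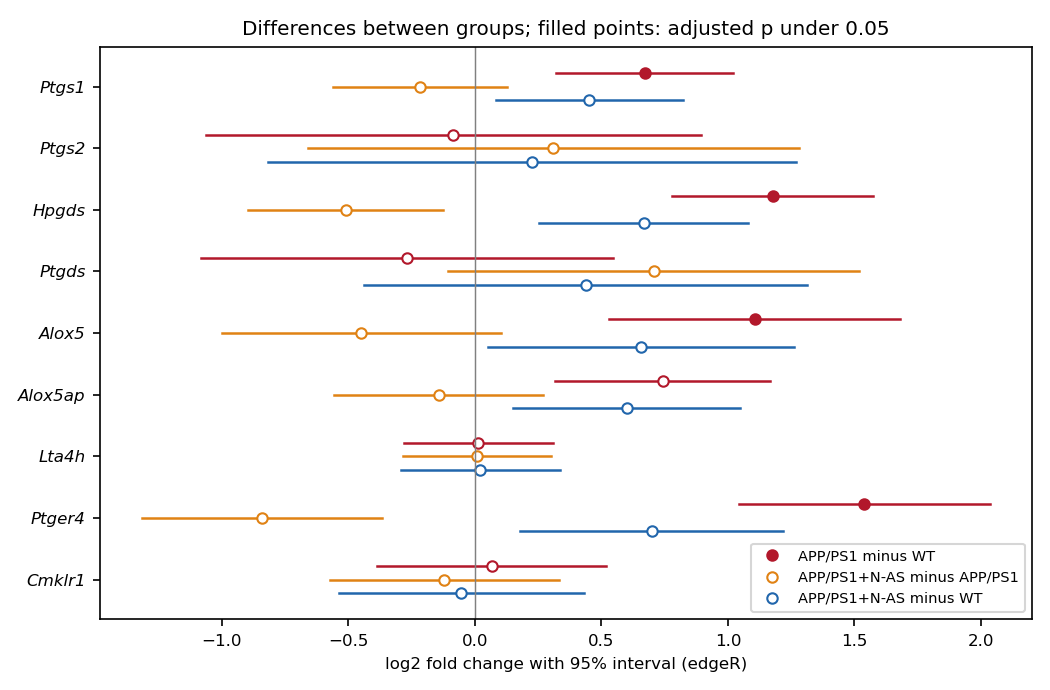
Log2 fold change with its 95% interval (horizontal axis) for 9 members in the 3 comparisons by edgeR, with filled points for an adjusted p under 0.05 and without Fpr2, whose intervals are wider. The intervals of Ptgs1, Hpgds, Alox5, Alox5ap and Ptger4 lie above 0 in APP/PS1 minus WT.

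Levels can be compared between genes only per length, here as CPM per kilobase of merged exons. In WT, Ptgds was highest at 319 ± 166 CPM per kb (SD, n = 3), followed by Cmklr1 at 13.1 ± 2.67. Ptgs2 at 7.73 ± 4.71, Lta4h at 7.32 ± 0.935, Alox5ap at 4.86 ± 1.02, Ptgs1 at 4.80 ± 0.613 and Hpgds at 4.07 ± 0.656 CPM per kb came next. Alox5 at 0.620 ± 0.144, Ptger4 at 0.501 ± 0.0171 and Fpr2 at 0.360 ± 0.347 CPM per kb were lowest. From Cmklr1 to Lta4h, from Alox5ap to Hpgds and from Alox5 to Fpr2, neighbours in this order did not differ beyond their spread.

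In APP/PS1, Ptgds at 265 ± 73.8 and Cmklr1 at 13.7 ± 2.14 CPM per kb (SD, n = 4) were again first. Hpgds came next at 9.21 ± 1.74 CPM per kb, ahead of Alox5ap at 8.19 ± 1.35, Ptgs1 at 7.67 ± 0.745, Lta4h at 7.40 ± 0.884 and Ptgs2 at 7.27 ± 0.658, which did not differ from their neighbours beyond their spread. Ptger4 at 1.46 ± 0.264 and Alox5 at 1.31 ± 0.316 CPM per kb were close, above Fpr2 at 0.395 ± 0.412. In N-AS libraries Ptgds was at 432 ± 101, Cmklr1 at 12.6 ± 3.15, Ptgs2 at 8.99 ± 4.59, Lta4h at 7.43 ± 0.441 and Alox5ap at 7.42 ± 0.902 CPM per kb (SD, n = 3). Ptgs1 at 6.58 ± 1.31 and Hpgds at 6.47 ± 0.887 CPM per kb followed, then Alox5 at 0.963 ± 0.0692, Ptger4 at 0.810 ± 0.202 and Fpr2 at 0.421 ± 0.193 CPM per kb. From Cmklr1 to Hpgds and from Alox5 to Fpr2, neighbours in the N-AS libraries did not differ beyond their spread.

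Because microglial markers moved with the groups, each member was also set against them, as its log2 CPM minus the mean log2 CPM of the 12 microglial genes in the same library. That mean was 5.82 ± 0.26 in WT (SD, n = 3), 7.04 ± 0.16 in APP/PS1 (SD, n = 4) and 6.54 ± 0.19 in N-AS libraries (SD, n = 3). Relative to it, Hpgds was at −1.03, −1.16 and −1.15 in WT, −1.40, −1.32, −1.09 and −0.88 in APP/PS1, and −1.22, −1.14 and −1.15 in N-AS libraries. The groups overlapped, and the group means of Hpgds differed by −0.06 between APP/PS1 and WT and by 0.00 between N-AS and APP/PS1. Ptger4 differed by 0.26 and −0.35 and Alox5 by −0.19 and 0.10 in these comparisons, with overlapping libraries. The part that the number of microglia in a library had in the rise of these genes was not tested.

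Between APP/PS1 and WT, Ptgs1, Alox5ap, Lta4h and Cmklr1 differed by less than the mean of the microglial markers. Relative to the markers, Ptgs1 was at −1.57, −1.49 and −1.72 in WT and −2.14, −2.07, −2.20 and −2.16 in APP/PS1, with every APP/PS1 library below WT. Alox5ap was lower by the same measure, with a difference of −0.48 between APP/PS1 and WT, as were Lta4h at −1.21 and Cmklr1 at −1.15, again with no overlap. The microglial marker mean differed by −0.50 between N-AS and APP/PS1, which raises every gene alike by this measure. Relative to it, the N-AS libraries lay above APP/PS1 in Ptgs1 (0.27), Alox5ap (0.37), Lta4h (0.51) and Ptgds (1.22). The log2 fold change of Lta4h there was 0.01 by edgeR. Cmklr1 (0.36) and Ptgs2 (0.66) overlapped. Ptgs2 overlapped between APP/PS1 and WT as well, at a difference of −1.08, and so did Fpr2 at −1.26 and Ptgds at −1.36.

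**Figure D3:**
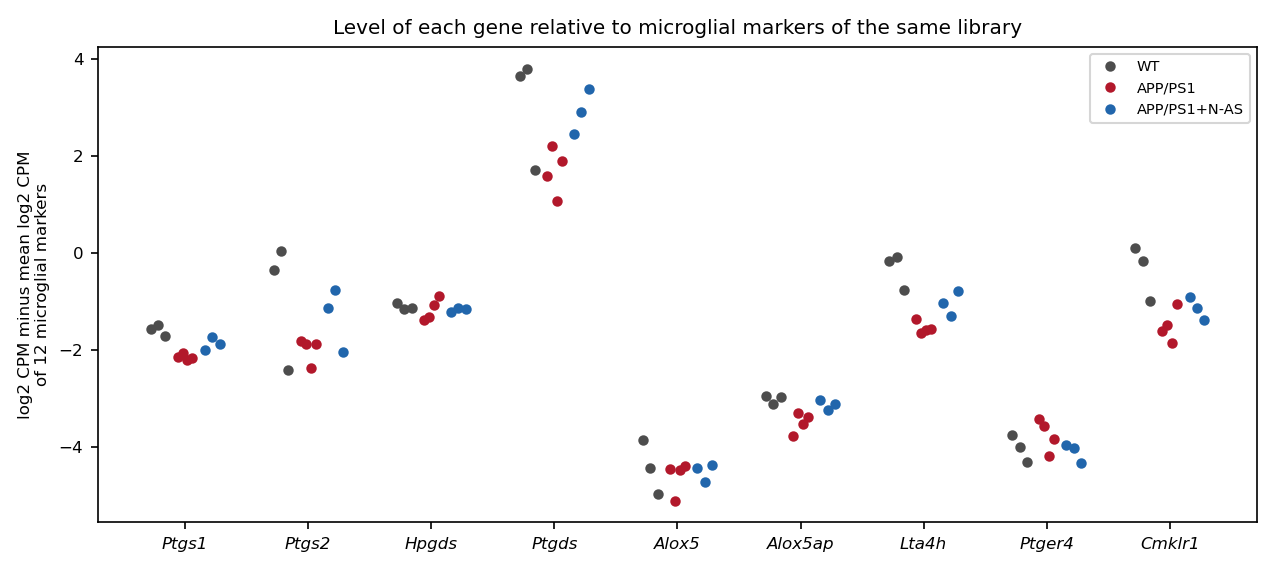
Log2 CPM of 9 members minus the mean log2 CPM of the 12 microglial markers in the same library (vertical axis), with 1 point per library colored by group. Hpgds lies between −1.40 and −0.88 in the 10 libraries. By this measure Ptgs1 and Lta4h lie lower in every APP/PS1 library than in WT, while the marker mean is 1.22 higher in APP/PS1.

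Of 62 other genes listed for the pathway, 56 passed the filter and 6 rose or fell in APP/PS1 against WT, 4 higher and 2 lower, by edgeR's adjusted p, where 3.47% of all genes passed. At an unadjusted p under 0.05 there were 10 of 56 genes, near the share of 17.2% among all genes, with 5 higher and 5 lower. These added Ltc4s (higher) and Pla2g4e, Ephx2 and Cysltr2 (lower). Ltc4s, Pla2g4e and Ephx2 were named after their values were seen. For N-AS minus APP/PS1, edgeR and DESeq2 gave 0 of 56 genes, and edgeR gave 7 at an unadjusted p under 0.05, 3 higher and 4 lower, against 0% and 8.83% of all genes by edgeR. In N-AS against WT edgeR gave 1 gene, DESeq2 gave 2, and 6 had an unadjusted p under 0.05 by edgeR, against 0.187% and 6.73% of all genes by edgeR. When N-AS replicate 3 was left out edgeR gave 0 genes against APP/PS1 and 1 against WT. The median log2 fold change of the list was −0.01, −0.03 and −0.11 in these comparisons. Pla2g4b, Pla2g2e, Pla2g10, Mgst2, Ltb4r1 and Ltb4r2 were too low in reads to test, with at most 24 reads in a library.

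Among 11 tested phospholipases and lipases that release arachidonate, 1 rose and 1 fell in APP/PS1 against WT by edgeR, while DESeq2 gave 3 genes and limma with voom gave 1. Pla2g15, a lysosomal phospholipase, was at 14.3, 15.4 and 19.3 CPM in WT, 21, 28.3, 30.1 and 33.1 CPM in APP/PS1, and 20.6, 26.0 and 19.7 CPM in N-AS libraries. It rose in every APP/PS1 library above WT, with a log2 fold change of 0.78 (SE 0.18, edgeR adjusted p 0.0451). Faah, which breaks down the endocannabinoid anandamide to arachidonate, was at 25.7, 27.5 and 29.5 CPM in WT, 20.5, 15.1, 14.9 and 16.8 CPM in APP/PS1, and 24.7, 18.7 and 29.0 CPM in N-AS libraries. Each APP/PS1 library lay below WT, and Faah fell with a log2 fold change of −0.71 (SE 0.17, edgeR adjusted p 0.0458). In N-AS against APP/PS1 it was 0.52 (edgeR adjusted p 0.498), with overlapping libraries, and 0.38 (edgeR adjusted p 0.724) without N-AS replicate 3. Mgll, monoacylglycerol lipase, had the highest CPM of this role, at 36.7 ± 7.26 CPM in WT (SD, n = 3), 36.9 ± 1.72 CPM in APP/PS1 (SD, n = 4) and 42.8 ± 6.75 CPM in N-AS (SD, n = 3).

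The calls on Pla2g15 and Faah each lay near the threshold and changed with the libraries and the processing used. They held in 6 and 5 of 15 alternatives. By edgeR, Pla2g15 kept an adjusted p under 0.05 without WT replicate 3 (0.0284) and without APP/PS1 replicate 1 (0.0227). It was 0.132 and 0.124 without WT replicate 1 and 2, and 0.103, 0.114 and 0.115 without APP/PS1 replicate 2, 3 and 4. Faah kept it without APP/PS1 replicate 1 (0.033). Its adjusted p was 0.0856, 0.108 and 0.0766 without WT replicate 1, 2 and 3, and 0.125, 0.142 and 0.115 without APP/PS1 replicate 2, 3 and 4. Pla2g15 was also lost by edgeR with total counts only (adjusted p 0.11), a replicate block (0.0907) and only the 2 groups compared (0.0837), and by limma with voom (0.0596). Faah was also lost by edgeR with total counts only (adjusted p 0.074), no filter (0.0658), a replicate block (0.1) and only the 2 groups compared (0.0567).

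Of 8 prostanoid synthases, Tbxas1 alone passed in APP/PS1 against WT by edgeR, and DESeq2 and limma with voom each gave 1 gene. Tbxas1 encodes thromboxane A synthase. Its level was 6.54, 8.92 and 9.74 CPM in WT, 29.3, 30.6, 44.5 and 38.1 CPM in APP/PS1, and 22.5, 23.7 and 18.2 CPM in N-AS libraries, from 55 to 800 reads a library. The 3 groups did not overlap, with WT lowest and APP/PS1 highest. Tbxas1 rose 4.20-fold in APP/PS1 against WT, a log2 fold change of 2.07 (SE 0.20, edgeR adjusted p 0.000545), and passed in each of the 7 fits without 1 library. Its exons share 144 bases with Gm42962 on the opposite strand. Between N-AS and APP/PS1 libraries it was −0.73 (SE 0.19), with an unadjusted p of 0.00267 and an adjusted p of 0.494 by edgeR. That became −0.62 without N-AS replicate 3 (edgeR adjusted p 0.724). Between N-AS and WT libraries Tbxas1 rose 2.53-fold, with a log2 fold change of 1.34 (SE 0.21, edgeR adjusted p 0.0353).

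Tbxas1 was the single pathway gene that passed in N-AS against WT by edgeR, while DESeq2 gave 1 synthase and 1 gene of the pro-resolving list, and limma with voom gave 0. The call on Tbxas1 depended on the libraries and on the processing, and held in 6 of 14 alternatives. It was lost by edgeR with total counts only (adjusted p 0.149), a replicate block (0.0978) and only the 2 groups compared (0.229), and by limma with voom (0.123). By edgeR its adjusted p was 0.143, 0.161 and 0.0426 without WT replicate 1, 2 and 3, and 0.193, 0.213 and 0.0185 without N-AS replicate 1, 2 and 3, with a log2 fold change of 1.47 in the last. N-AS replicate 3 had 18.2 CPM of Tbxas1, above each WT library. Ptges3, a prostaglandin E synthase that is also a co-chaperone, had the highest CPM of the synthases, at 92.7 ± 9.10 CPM in WT (SD, n = 3), 99.5 ± 14.5 CPM in APP/PS1 (SD, n = 4) and 89.3 ± 3.81 CPM in N-AS (SD, n = 3). Its log2 fold change was 0.10 in APP/PS1 against WT (edgeR adjusted p 0.771).

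Of 5 genes of prostanoid transport and breakdown, Hpgd passed in APP/PS1 against WT by edgeR, and DESeq2 and limma with voom each gave 1 gene. Hpgd, the dehydrogenase that inactivates prostaglandins, was at 3.68, 6.25 and 11.9 CPM in WT, 17.3, 20.4, 27.9 and 18.9 CPM in APP/PS1, and 14.7, 15.9 and 17.1 CPM in N-AS libraries. The groups did not overlap. Hpgd rose 2.83-fold in APP/PS1 against WT, a log2 fold change of 1.5 (SE 0.32, edgeR adjusted p 0.0297), and was −0.41 in N-AS against APP/PS1 (edgeR adjusted p 0.729) and 1.09 in N-AS against WT (edgeR adjusted p 0.453). With N-AS replicate 3 left out the last pair was −0.46 (edgeR adjusted p 0.772) and 1.06 (edgeR adjusted p 0.457). By edgeR the adjusted p in APP/PS1 against WT was 0.0622, 0.1 and 0.00332 without WT replicate 1, 2 and 3, and 0.0384, 0.065, 0.0803 and 0.0634 without APP/PS1 replicate 1, 2, 3 and 4. The call on Hpgd held in 8 of 15 alternatives, and edgeR also lost it with total counts only (adjusted p 0.0556) and with only the 2 groups compared (0.0775). Abcc4, a transporter that exports prostaglandins, had the highest CPM of this role, at 135 ± 45.3 CPM in WT (SD, n = 3), 154 ± 8.76 CPM in APP/PS1 (SD, n = 4) and 162 ± 18.0 CPM in N-AS (SD, n = 3).

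Of 8 prostanoid receptors beside Ptger4, 0 passed in any of the 3 comparisons by edgeR, DESeq2 or limma with voom, and 0 had an unadjusted p under 0.05 by edgeR. Ptgfr, the receptor for prostaglandin F, had the highest CPM. It was at 234, 225 and 78.2 CPM in WT, 386, 289.7, 155 and 126 CPM in APP/PS1, and 259.7, 209 and 143 CPM in N-AS libraries. Within each group the libraries numbered 7 to 10 were the lowest, and the groups overlapped. The log2 fold change was 0.42 in APP/PS1 against WT (SE 0.45, edgeR adjusted p 0.695). The exons of Ptgfr share 329 bases with Gm43618 on the opposite strand.

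Other lipoxygenases (5 tested), genes of leukotriene synthesis and breakdown (8 tested) and leukotriene receptors (3 tested) held 0 calls by edgeR in the 3 comparisons. At an unadjusted p under 0.05 edgeR gave 0, 2 and 1 of them in APP/PS1 against WT. DESeq2 gave 1 gene, Ltc4s of leukotriene synthesis, in APP/PS1 against WT, and limma with voom gave 0. Alox8, an arachidonate lipoxygenase, was at 11.5 ± 5.38 CPM in WT (SD, n = 3), 7.78 ± 1.89 CPM in APP/PS1 (SD, n = 4) and 6.77 ± 0.577 CPM in N-AS (SD, n = 3). Its log2 fold change was −0.55 in APP/PS1 against WT (edgeR adjusted p 0.359) and −0.74 in N-AS against WT (edgeR adjusted p 0.676), where the N-AS libraries lay below, and −0.64 (edgeR adjusted p 0.611) there without N-AS replicate 3. Ggt5, which turns leukotriene C4 into D4, was at 10.3 ± 2.64, 12.3 ± 1.13 and 10.4 ± 1.02 CPM in WT (SD, n = 3), APP/PS1 (SD, n = 4) and N-AS (SD, n = 3). Cysltr2, a receptor for cysteinyl leukotrienes, was at 5.46 ± 2.26, 3.23 ± 0.764 and 4.43 ± 0.857 CPM in these groups. Its log2 fold change in APP/PS1 against WT was −0.74 (SE 0.32, edgeR adjusted p 0.271).

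Of 8 pro-resolving receptors and protein ligands, 1 rose and 1 fell in APP/PS1 against WT by edgeR, and DESeq2 and limma with voom each gave 2 genes. Ccrl2, a receptor that binds chemerin, the ligand of Cmklr1, was at 6.42, 5.45 and 3.42 CPM in WT, 14.0, 18.9, 12 and 12.6 CPM in APP/PS1, and 8.89, 11 and 7.17 CPM in N-AS libraries. The groups did not overlap. Ccrl2 rose 2.86-fold, a log2 fold change of 1.52 (SE 0.26, edgeR adjusted p 0.0107), and was −0.66 in N-AS against APP/PS1 (edgeR adjusted p 0.517), or −0.52 (edgeR adjusted p 0.724) without N-AS replicate 3. Gpr37, named as a receptor for neuroprotectin D1, was at 107, 115 and 54.7 CPM in WT, 29.8, 34.0, 20.6 and 21.3 CPM in APP/PS1, and 44.1, 43.9 and 41.7 CPM in N-AS libraries. It fell in APP/PS1 against WT with a log2 fold change of −1.81 (SE 0.25, edgeR adjusted p 0.00359), and every N-AS library lay between the other groups. For N-AS minus APP/PS1 Gpr37 was 0.71 (edgeR adjusted p 0.51), and 0.75 (edgeR adjusted p 0.724) without N-AS replicate 3. The 10 oligodendrocyte markers had a median log2 fold change of −1.34 in APP/PS1 against WT, with 3 of the 10 called by edgeR and 3 with every APP/PS1 library below WT. Their part in the level of Gpr37, a gene that oligodendrocytes make, was not tested. Ccrl2 and Gpr37 passed in each of the 7 fits without 1 library.

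**Figure D4:**
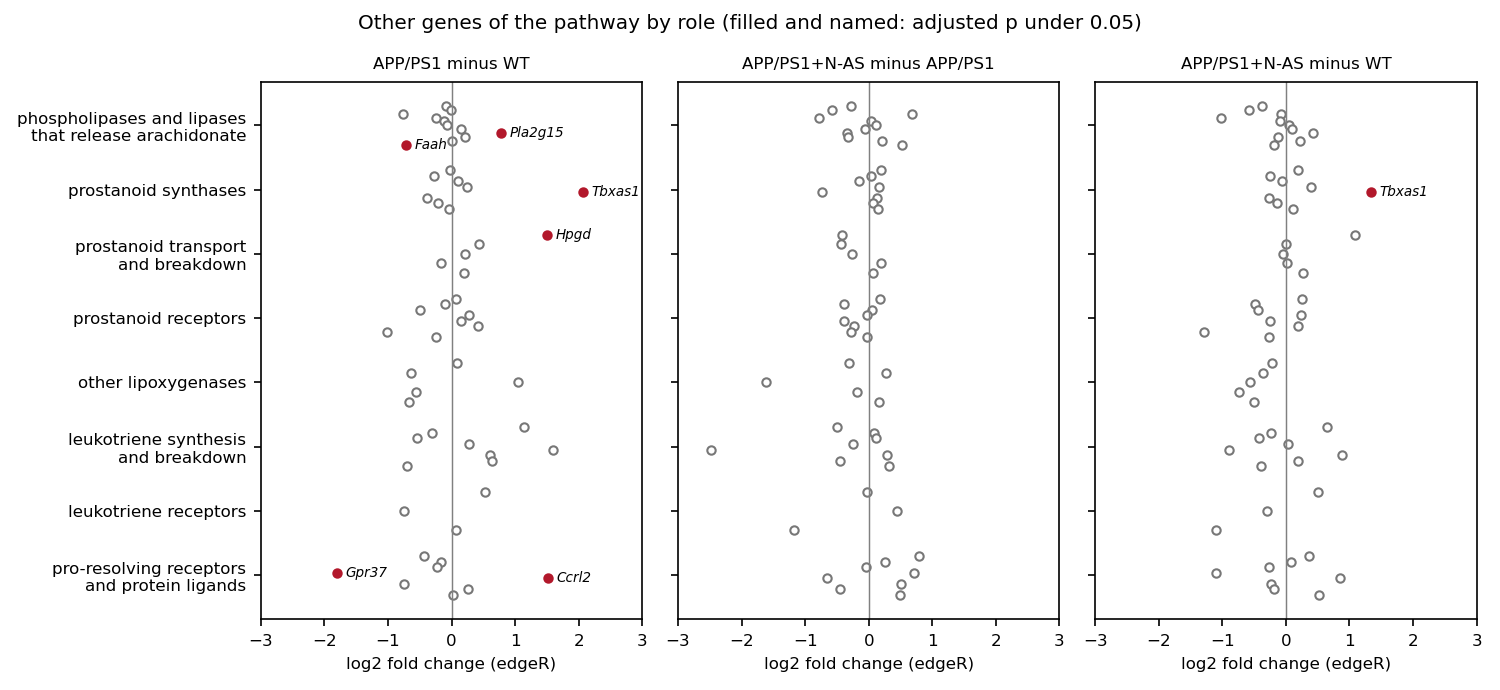
Log2 fold change (horizontal axes) of the 56 tested pathway genes other than the members, grouped by role, in the 3 comparisons, with genes that passed an adjusted p under 0.05 by edgeR filled and named. In APP/PS1 minus WT, Tbxas1 is highest at 2.07 and Gpr37 lowest at −1.81 among those filled.

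The genes lie apart on the genome, with positions from GENCODE M21 on GRCm38, the build the labels call mm10. Ptgs1 is at chr2:36230426-36252272 on the plus strand, Ptgs2 at chr1:150100031-150108227 (plus), Hpgds at chr6:65117293-65144908 (minus) and Ptgds at chr2:25466709-25470046 (minus). Alox5 is at chr6:116410077-116461178 (minus), Alox5ap at chr5:149264767-149288153 (plus) and Lta4h at chr10:93453411-93484875 (plus). Ptger4 is at chr15:5206661-5244187 (minus), Cmklr1 at chr5:113612354-113650426 (minus) and Fpr2 at chr17:17887824-17893952 (plus). Exons of some members overlap a gene on the opposite strand: Ptgs1 shares 148 bases with Gm43621, Alox5ap 189 bases with Gm19719, and Ptger4 82 bases with Ttc33 and 1015 bases with the pseudogene Gm15937. The labels do not say whether strands were counted apart, so reads in these bases cannot be assigned with certainty.

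Promoter windows are shown for the 4 members that rose in APP/PS1 against WT, to set the sequence beside genes called in the same comparison. RefSeq windows on GRCm38.p6, from 250 bases before to 50 bases after the start, were found for 9 of 10 members, and Alox5ap had no entry. The letters GAGGAA, the core that PU.1 and related factors bind, were searched on both strands and are in capitals. They occur in 28.3% of all 32851 promoter windows of 300 bases, and in 7 of the 9 member windows: Ptgs1, Ptgs2, Hpgds, Alox5 and Cmklr1 in the direction of the gene, and Lta4h and Fpr2 on the other strand. In Ptgs1, Hpgds and Alox5 the first base of the match is base 227, 202 and 115 of the window. The windows of Ptgds and Ptger4 hold no match, which says only that these letters are not in them. The windows printed are chr2:36230176-36230475 (plus) for Ptgs1, chr6:65144681-65144980 (minus) for Hpgds, chr6:116461129-116461428 (minus) for Alox5 and chr15:5244138-5244437 (minus) for Ptger4.
Ptgs1: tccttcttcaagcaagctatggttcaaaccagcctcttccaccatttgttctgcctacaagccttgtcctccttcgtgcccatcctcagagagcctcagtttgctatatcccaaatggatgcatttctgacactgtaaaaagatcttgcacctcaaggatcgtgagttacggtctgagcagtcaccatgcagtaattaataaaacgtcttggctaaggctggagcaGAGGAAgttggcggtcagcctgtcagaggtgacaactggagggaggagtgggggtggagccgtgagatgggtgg
Hpgds: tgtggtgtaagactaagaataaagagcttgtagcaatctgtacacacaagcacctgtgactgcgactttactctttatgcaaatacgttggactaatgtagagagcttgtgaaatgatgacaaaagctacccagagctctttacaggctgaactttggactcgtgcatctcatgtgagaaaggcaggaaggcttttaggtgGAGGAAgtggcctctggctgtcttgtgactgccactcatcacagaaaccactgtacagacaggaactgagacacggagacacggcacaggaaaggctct
Alox5: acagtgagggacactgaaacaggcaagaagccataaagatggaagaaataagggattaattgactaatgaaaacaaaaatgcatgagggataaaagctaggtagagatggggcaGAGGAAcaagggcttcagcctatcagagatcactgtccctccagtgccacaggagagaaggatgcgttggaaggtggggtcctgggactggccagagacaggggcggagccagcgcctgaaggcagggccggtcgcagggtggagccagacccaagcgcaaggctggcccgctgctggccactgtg
Ptger4: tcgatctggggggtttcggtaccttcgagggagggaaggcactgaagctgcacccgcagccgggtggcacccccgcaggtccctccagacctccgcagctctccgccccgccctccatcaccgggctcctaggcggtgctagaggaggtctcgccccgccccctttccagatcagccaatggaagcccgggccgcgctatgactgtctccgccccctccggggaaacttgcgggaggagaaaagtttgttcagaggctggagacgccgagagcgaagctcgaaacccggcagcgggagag

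The genes nearest to each member in profile were found by the smallest root mean square difference of mean-centred log2 CPM over the 10 libraries, among 13211 genes with a mean of at least 5 CPM. Hpgds, which spanned 1.62 on the log2 scale, was nearest to Cst3 at 0.07, Tgfbr1 at 0.08 and Cyth4 at 0.09. Ptgs1, spanning 1.04, was nearest to Dennd4a at 0.10, Ppcdc at 0.11 and Epb4.1l2 at 0.12. Alox5ap was nearest to Nans at 0.13, Ifngr2 at 0.13 and Uap1l1 at 0.14, and Ptger4 to Snora75 at 0.21, Renbp at 0.22 and Bmf at 0.22. Ptgs2, spanning 2.25, was nearest to Grrp1 at 0.18, Myzap at 0.21 and Hspb1 at 0.22. Ptgds, spanning 1.91, was nearest to Aldh1a2 at 0.24, Fmod at 0.28 and Slc38a5 at 0.29. Lta4h was nearest to Abcf3 at 0.08, Ing3 at 0.08 and Lrba at 0.09, and Cmklr1 to Ctr9 at 0.11, Parp3 at 0.11 and P4ha3 at 0.12. Alox5 and Fpr2 were below a mean of 5 CPM and were not compared.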

How the data were processed

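The files hold counts deposited by the authors, whole numbers of reads per gene symbol without normalization, made from rRNA-depleted stranded libraries with paired reads aligned by TopHat. The labels name mm10, TopHat and edgeR without versions. The 24481 lines were summed to 24421 symbols (103 lines share 43 symbols). In R 4.3.3, genes were filtered with filterByExpr and scaled by TMM. The 18727 genes left were tested with edgeR 4.0.16 (glmQLFit and glmQLFTest, 1 model of 3 groups, 7 residual degrees of freedom). Adjusted p-values follow Benjamini and Hochberg (BH) over these genes, and 0.05 was the threshold. The estimated common dispersion was 0.0752. A prior count of 2 entered log2 CPM.

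The alternatives tried were total counts only in place of TMM, DESeq2 1.42.0, voom on quantile-normalized values with limma 3.58.1, no filter, at least 10 counts in every library, a replicate block, the library number set as a covariate, only the groups compared, and each library left out in turn. The code was tested on simulated data. Total counts were 8805804 to 19432075, and genes with few reads carry a larger counting error. WT replicate 1 had the lowest total and also the fewest symbols at 0 reads, 566, against 837 to 3985 in the other libraries. The cause was not tested.

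The groups and replicate numbers come from the labels, which do not say that libraries of 1 number were handled together. The correlation of deviations from the group means was taken between same-numbered libraries of N-AS and APP/PS1. It was 0.28, 0.14 and 0.31 for replicates 1, 2 and 3, which met a rule of every r over 0.1. Libraries of different numbers were not compared in this way, so these values cannot show that the numbers pair the libraries. The main model is unpaired.

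The genes named by rule are all members, every gene of the pathway list with an adjusted p under 0.05 by edgeR in a comparison, the gene of highest mean CPM in each role, the genes that check the labels, the most abundant gene of each marker list, and the 3 nearest profiles. Further pathway and marker genes were named as too low in reads to test, at 0 reads in a library, or for their p-values after these were seen. Some genes under this rule are not reported here. Members and lists were chosen with earlier results of these data known.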

Additional observations from a re-analysis of the deposited data

Results flagged for a closer look

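In the APP/PS1 group of 4 libraries, the highest or lowest library was set against the range of the group by Dixon's ratio for 57 measures, and 5 exceeded its critical value. Chance gives about 1 in 20 groups, and the measures share libraries. Of the 5, 4 concerned APP/PS1 replicate 3. Its neutrophil markers summed to 98.4 CPM, with the next library at 8.89 CPM. Its monocyte markers summed to 20.3 CPM, with the next at 12.6 CPM. Its level of Ggt5 was 14.0 CPM, with the next at 11.8 CPM. Ptgs2 relative to microglial markers was −2.37 on the log2 scale there, with the next at −1.88. In APP/PS1 replicate 2, Alox5 relative to microglial markers was −5.11, with the next at −4.48.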

How the results depend on the processing

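Fpr2 (0 to 18 reads) and Alox5 (27 to 117 reads) had the fewest reads of the members. Their SEs in APP/PS1 against WT were 1.04 and 0.26 by edgeR. With more reads, Ptgs2 (260 to 1153) had an SE of 0.44 and Ptgds (4393 to 14675) of 0.37. Of 435 member fold changes under alternatives, 373 kept direction and side of the threshold, 20 lost the call, 3 gained it, and 39 turned direction, 0 of them with an adjusted p under 0.05. Fpr2 could not be fitted with at least 10 counts in every library, nor with only the groups compared in APP/PS1 against WT and in N-AS against APP/PS1. The cause was not tested for any value that moved.

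In APP/PS1 against WT, Hpgds and Ptger4 passed in 15 of 15 alternatives, Alox5 in 6, Ptgs1 in 4 and Alox5ap in 3. Members called were 4, with 5 by DESeq2, 3 with voom and with no filter beyond 1 read, 4 with at least 10 counts in every library and with the library number set as covariate, and 2 with total counts only and with only the groups compared. Leaving out 1 library gave 2 to 4. Pathway genes called were 6, with 8 by DESeq2, 7 with at least 10 counts in every library and with the library number set as covariate, 5 with voom and with no filter beyond 1 read, and 3 with total counts only and with only the groups compared. Leaving out 1 library gave 3 to 6. In APP/PS1 against WT the number of all genes called is given only for the main fit and the replicate block. The counts under the other alternatives therefore do not show whether calls moved in the listed genes alone. In N-AS against WT, pathway genes called were 1, and 2 with DESeq2 and with the library number set as covariate, 0 with total counts only, with voom and with only the groups compared, and 0 to 3 without 1 library. Members and pathway genes in N-AS against APP/PS1 were 0 in all alternatives.

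Ptgs2 in APP/PS1 against WT turned to 0.18 with voom and 0.29 with the library number set as covariate. In N-AS against APP/PS1, Ptgs2 was −0.0256 with that covariate, and Lta4h was −0.00139 with DESeq2, −0.0281 with total counts only, −0.0211 with voom and −0.00425 with at least 10 counts in every library. Fpr2 was 1.18 with voom against 0.0879 in N-AS against APP/PS1, and 1.2 against 0.34 in N-AS against WT. Log2 fold changes that turned without 1 library had these ranges. In APP/PS1 against WT they were −0.49 to 0.43 for Ptgs2, −0.63 to 0.0872 for Ptgds, −0.0474 to 0.13 for Lta4h, −0.0810 to 0.18 for Cmklr1 and −0.62 to 1.11 for Fpr2. In N-AS against APP/PS1 they were −0.0905 to 0.66 for Ptgs2, −0.0569 to 0.0644 for Lta4h, −0.25 to 0.0809 for Cmklr1 and −0.30 to 0.98 for Fpr2. In N-AS against WT they were −0.18 to 0.74 for Ptgs2, −0.0429 to 0.14 for Lta4h, −0.20 to 0.17 for Cmklr1 and −0.21 to 1.2 for Fpr2.

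With a replicate block, APP/PS1 against WT gave 2 members, 4 pathway genes and 326 genes in all, against 649 without it, and N-AS against WT gave 0 members, 0 pathway genes and 5 genes against 35. N-AS against APP/PS1 gave 0 members, 0 pathway genes and 0 genes, so the replicate block changed no call there. With the replicate block Ptgs2 was 0.18 and Cmklr1 −0.0174 in APP/PS1 against WT, and Lta4h −0.0470 in N-AS against APP/PS1. The correlation of deviations between same-numbered libraries was −0.49, 0.44 and −0.01 for APP/PS1 and WT and −0.14, 0.35 and 0.24 for N-AS and WT, so there the libraries share only a number.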
